A study of Mus musculus with 6 samples.

Results

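The endocochlear potential, the positive voltage of the endolymph that drives hair cell transduction, is made by ion transport across the stria vascularis of the cochlea. The 7 genes of this transport examined here, of the 48709 mouse genes in the count table, were each found by matching an Ensembl identifier to a symbol: Kcnj10, Kcnj13, Kcnq1, Kcne1, Slc12a2, Atp1b2 and Bsnd. RNA-seq libraries came from cochleae of 3 mice homozygous for the Hgf del10Neo allele (knock-in, KI, genotype Hgfdel10Neo/del10Neo), which removes 10 bp of intron 5 of Hgf and carries Neo, and of 3 wild-type littermates (wt, Hgf+/+). All were between 5 and 27 weeks old, and the labels used here give no age, sex or litter for the single mouse. The series is titled as a model of DFNB39, a recessive deafness, and the question here was whether the transport genes of the stria differed between the genotypes.

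In the stria, intermediate cells, which derive from melanocytes, release potassium through the inward rectifier channel encoded by Kcnj10 into a thin space between the cell layers. Marginal cells take potassium up from that space with the sodium pump and the sodium-potassium-chloride cotransporter, return chloride through channels, and secrete potassium into endolymph through the KCNQ1 and KCNE1 channel. Loss of several of these genes causes deafness in mice and people. A whole cochlea also holds other cells that use them: Kcnj10 in glia and supporting cells, Slc12a2 in fibrocytes and many secretory epithelia, Atp1b2 in glia and neurons. In bulk RNA, fewer cells of a type and less RNA per cell cannot be told apart.

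The KI libraries held 34437746, 28451570 and 24005234 gene counts and the wt libraries 24144106, 29041493 and 42312291. Hgf was at 9.24, 10.4 and 10.5 CPM (read counts scaled to the TMM-adjusted library total) in KI and 15.4, 16.3 and 15.2 CPM in wt libraries. The Neo cassette had 71, 199 and 5 counts in KI and 5, 8 and 10 counts in wt libraries, so the library labelled KI replicate 3 was at the wt level for Neo but not for Hgf. Values without that library are given below for the genes described as standing apart between the groups. Nothing in the labels says that tissues were pooled or split, so p-values measure the spread between these 6 samples.

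Kcnj10 (ENSMUSG00000044708) occupies bases 172341210 to 172374085 of chromosome 1 in GRCm38, plus strand, and Kcnj13 (ENSMUSG00000079436) bases 87386363 to 87394729 of the same chromosome, minus strand. All coordinates below are of this build. Both are potassium channel genes. Promoters are shown for these 2 of the 7 genes, from RefSeq on GRCm38.p6. Each runs from 250 bases before to 50 after the start, read 5′ to 3′ along the gene. Promoters of the other genes are left out here, which does not mean that the promoter source lacks them. Kcnj10 is at chr1:172340960-172341259 (+) and Kcnj13 at chr1:87394680-87394979 (-). Capitals mark the motif letters named in the next paragraph, on either strand.
Kcnj10: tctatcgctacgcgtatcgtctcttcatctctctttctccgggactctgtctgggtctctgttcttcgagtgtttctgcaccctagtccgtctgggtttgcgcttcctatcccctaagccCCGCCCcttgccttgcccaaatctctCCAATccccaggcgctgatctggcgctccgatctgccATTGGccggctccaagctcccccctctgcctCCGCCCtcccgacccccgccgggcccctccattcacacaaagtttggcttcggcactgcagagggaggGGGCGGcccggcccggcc
Kcnj13: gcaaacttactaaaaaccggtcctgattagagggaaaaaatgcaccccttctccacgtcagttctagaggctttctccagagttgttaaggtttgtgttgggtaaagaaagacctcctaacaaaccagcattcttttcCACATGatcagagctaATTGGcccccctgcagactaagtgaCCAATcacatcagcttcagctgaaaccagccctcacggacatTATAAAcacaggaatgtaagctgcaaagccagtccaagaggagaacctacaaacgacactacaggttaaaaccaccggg

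The windows differ in composition. Kcnj10 has 63.7% G and C, more than 79.1% of promoters of that length, and Kcnj13 has 46%, more than 25.1% of them. E-box letters, the kind of sequence that the melanocyte factor MITF is known to bind, were searched as CACGTG and, in a second search, as the variant CATGTG, both on either strand. CACGTG is in neither window and in 7.15% of the 32851 promoters of that length. CATGTG is absent from the Kcnj10 window and occurs once in the Kcnj13 window, on the opposite strand 112 bases before the start, and 14.2% of promoters hold it. Of the letters added after the windows had been read, TATAAA stands 29 bases before the Kcnj13 start (13.6% of promoters) and GGGCGG occurs 3 times in the Kcnj10 window (35.7% of promoters). CCAAT occurs in both windows and in 37.4% of promoters. None of these motifs overlaps another in the 2 windows.

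Of the 7 genes, the inward rectifier genes Kcnj10 and Kcnj13 had the lowest log2 fold changes and Bsnd the highest. Kcnq1, Kcne1, Slc12a2 and Atp1b2 lay between them. The groups overlapped for all but Kcnj10 and Bsnd. None of the 7 genes passed an adjusted p of 0.05 in edgeR's quasi-likelihood test over the 20733 genes tested, where 0.0338% of genes did (0.0241% lower and 0.00965% higher in KI); none passed in DESeq2 or limma-voom either. At an unadjusted p under 0.05 the count was 1 of 7, Kcnj10, against 4.5% of all tested genes (1.96% lower and 2.54% higher in KI). The median log2 fold change of the 7 was -0.05. All 7 passed the filter on low counts.

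**Figure D1:**
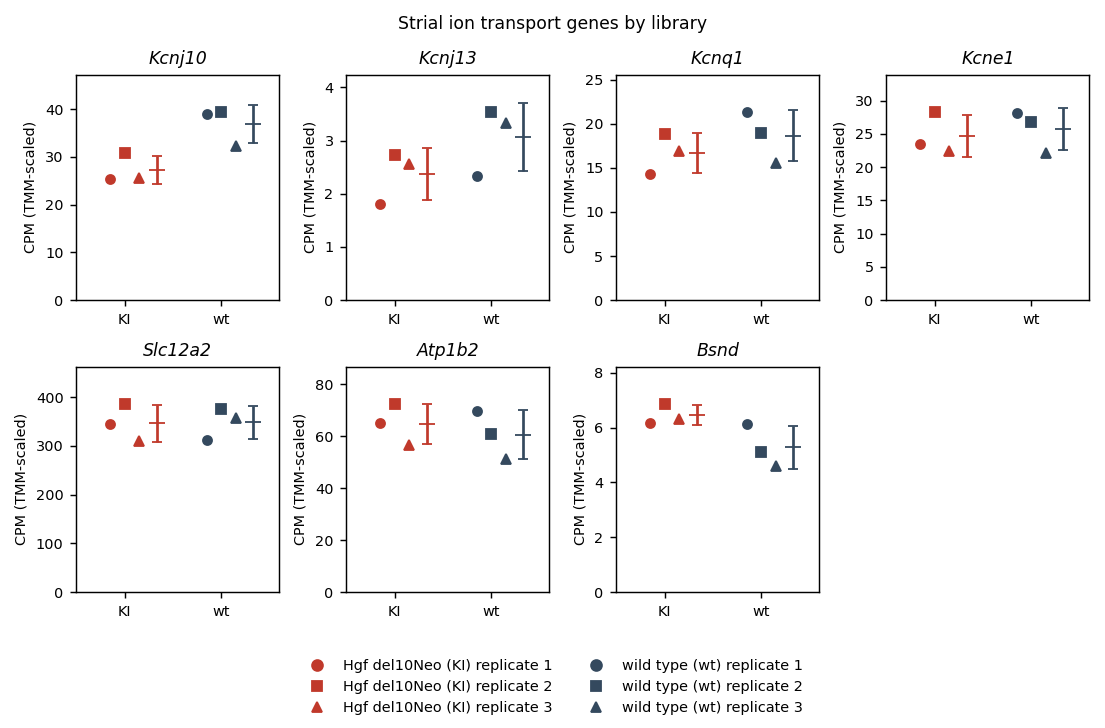
Level of each gene in CPM (TMM-scaled, linear axis from 0) in the 3 KI and 3 wt cochleae, 1 point per library, with mean and SD beside the points. Kcnj10 is lower in every KI library than in every wt library, Bsnd is higher in every KI library, and the groups overlap for the other 5 genes.

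Kcnj10 encodes the inward rectifier channel Kir4.1 of intermediate cells. It was at 25.4, 30.7 and 25.7 CPM in the KI libraries and 38.9, 39.4 and 32.3 CPM in the wt libraries. The highest KI library was below the lowest wt library, and the gap between them was small beside the range within wt. The mean was 27.3 ± 2.99 CPM in KI and 36.9 ± 3.94 CPM in wt (SD, n = 3 each), a log2 fold change of -0.43 (SE 0.123), 1.35-fold lower in KI. In edgeR's quasi-likelihood test the adjusted p was 0.966 and the unadjusted p 0.00594, the 104th smallest of the 20733. In the authors' deposited table the log2 fold change was -0.44 and the adjusted p 0.465. Every KI library lay below every wt library for 4.01% of all tested genes. Without KI replicate 3 the groups still did not overlap and the log2 fold change was -0.39.

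Kcnj13 encodes Kir7.1, an inward rectifier known best from retinal pigment epithelium and choroid plexus and also found in strial intermediate cells. It had the fewest counts of the 7, with 60, 80 and 59 counts in KI and 58, 105 and 139 counts in wt libraries. On the scaled level it was at 1.81, 2.73 and 2.56 CPM in KI and 2.33, 3.53 and 3.32 CPM in wt libraries. Wt replicate 1 lay within the KI range, so the groups overlapped. The log2 fold change was -0.38 (SE 0.235, edgeR adjusted p = 0.966). Without wt replicate 1 the groups did not overlap and the log2 fold change was -0.54, while without KI replicate 1 it was -0.22. Kcnj13 lies inside Gigyf2 on the opposite strand and shares 623 of its 1270 exonic bases with exons of that gene, which had between 1530 and 3004 counts per library. Whether counting used strand is unknown, so reads of this pair may not be separable.

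Kcnq1 encodes the pore subunit of the channel that secretes potassium across the apical membrane of marginal cells. It was at 14.3, 18.8 and 16.9 CPM in KI and 21.3, 19 and 15.6 CPM in wt libraries. The groups overlapped, since wt replicate 3 was below 2 of the KI libraries. The log2 fold change was -0.16 (SE 0.148, edgeR adjusted p = 0.971), and it was -0.05 without wt replicate 1 or KI replicate 1. Without wt replicate 3 the groups did not overlap, KI being below wt, and the log2 fold change was -0.27. Kcnq1 spans 143106362 to 143427042 of chromosome 7 and surrounds the antisense gene Kcnq1ot1, with 3806 to 8223 counts per library. Their exons share 121 of the 4093 exonic bases of Kcnq1.

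Kcne1 encodes the small membrane protein that slows and enlarges the KCNQ1 current, and lies on chromosome 16 from 92345982 to 92359468. It was at 23.4, 28.3 and 22.4 CPM in KI and 28.1, 26.8 and 22.1 CPM in wt libraries. The ranges were nearly the same. The log2 fold change was -0.05 (SE 0.133, edgeR adjusted p = 0.986).

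Slc12a2 (ENSMUSG00000024597) encodes NKCC1, the cotransporter that brings sodium, potassium and chloride into marginal cells across the basolateral membrane. It was the most abundant of the 7, at 345, 385 and 309 CPM in KI and 311, 376 and 357 CPM in wt libraries. The means were 347 ± 38 CPM in KI and 348 ± 33.3 CPM in wt (SD, n = 3 each), and the groups overlapped over almost their whole ranges. The log2 fold change was -0.0062 (SE 0.125, edgeR adjusted p = 0.998), and its sign turned with upper-quartile scaling.

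Atp1b2 encodes a beta subunit of the sodium pump and lies on chromosome 11 from 69599736 to 69605942. It was at 65.1, 72.3 and 56.6 CPM in KI and 69.8, 60.8 and 51.1 CPM in wt libraries. The groups overlapped. The log2 fold change was 0.1 (SE 0.135, edgeR adjusted p = 0.976).

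Bsnd encodes barttin, a chloride channel subunit of marginal cells, and lies on chromosome 4 from 106483456 to 106492283. It was at 6.19, 6.86 and 6.33 CPM in KI and 6.15, 5.11 and 4.61 CPM in wt libraries. Every KI library was above every wt library, but KI replicate 1 and wt replicate 1 were almost level. The means were 6.46 ± 0.354 CPM in KI and 5.29 ± 0.785 CPM in wt (SD, n = 3 each), a log2 fold change of 0.29 (SE 0.158), 1.23-fold higher in KI. The unadjusted p was 0.0943 and the adjusted p 0.966 in edgeR's quasi-likelihood test. Such a gap in this direction was found for 4.71% of all tested genes, and a gap in either direction for 8.72%. Without KI replicate 3 the log2 fold change was 0.31. Bsnd had 146 to 205 counts per library, and counting error alone gave a coefficient of variation of 7.46% in KI and 7.81% in wt, where the observed values were 5.49% in KI and 14.8% in wt.

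Counting error was a larger part of the spread for the rare genes. For Kcnj13 it was 12.4% of the mean in KI and 10.6% in wt, where the libraries varied by 20.6% and 20.9%. For Slc12a2 it was 1.03% in KI and 0.976% in wt, where the libraries varied by 11% and 9.57%.

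Per kilobase of exon (FPKM, here TMM-scaled CPM divided by the length of the merged exons), the order of levels was led by the cotransporter and the pump subunit. In KI, Slc12a2 was at 31.7 ± 3.48, Atp1b2 at 15.8 ± 1.92, Kcne1 at 7.68 ± 0.977, Kcnj10 at 5.04 ± 0.553, Kcnq1 at 4.08 ± 0.548, Bsnd at 2.34 ± 0.129 and Kcnj13 at 1.86 ± 0.385 FPKM (SD, n = 3). No neighbours in that order overlapped between the KI libraries. In wt, Slc12a2 was at 31.9 ± 3.05, Atp1b2 at 14.8 ± 2.28, Kcne1 at 7.99 ± 0.981, Kcnj10 at 6.82 ± 0.73, Kcnq1 at 4.55 ± 0.704, Kcnj13 at 2.41 ± 0.505 and Bsnd at 1.92 ± 0.285 FPKM (SD, n = 3). In wt, Kcne1 and Kcnj10 overlapped, as did Kcnj13 and Bsnd. The last 2 places were exchanged between the genotypes, and in wt those levels were not separated beyond the spread between libraries.

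Some of the 7 genes varied together between libraries and others did not. KI replicate 2 had the highest CPM of the KI libraries for all 7, and wt replicate 3 had the lowest of the wt libraries for 5 of 7. Across the 6 libraries, log2 CPM of the channel subunits Kcnq1 and Kcne1 had a Pearson r of 0.83, Kcne1 and Atp1b2 also 0.83, Atp1b2 and Bsnd 0.76, and Kcnj10 and Kcnq1 0.75. Of the 21 pairs 5 were negative, the lowest being Kcnj13 with Bsnd at -0.65, Kcnj13 with Atp1b2 at -0.47 and Kcnj10 with Bsnd at -0.40, and the median was 0.28. Slc12a2 ran from -0.23 to 0.47 with the other 6. These values describe 6 libraries that share their scaling and their dissections.

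Ratios between genes within a library depend little on the scaling of that library, so 7 ratios were compared with exact two-sided permutation tests. Another 3, added after the values had been seen, are given as values with no test. All were taken from log2 CPM with a prior count of 2, a small amount added to each count. For genes of few counts, such as Kcnj13, they therefore differ slightly from the plain ratio of CPM. With 3 against 3 libraries the smallest p is 0.1, so no ratio could pass 0.05, and over the 7 tested ratios the smallest Benjamini-Hochberg value was 0.35.

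**Figure D2:**
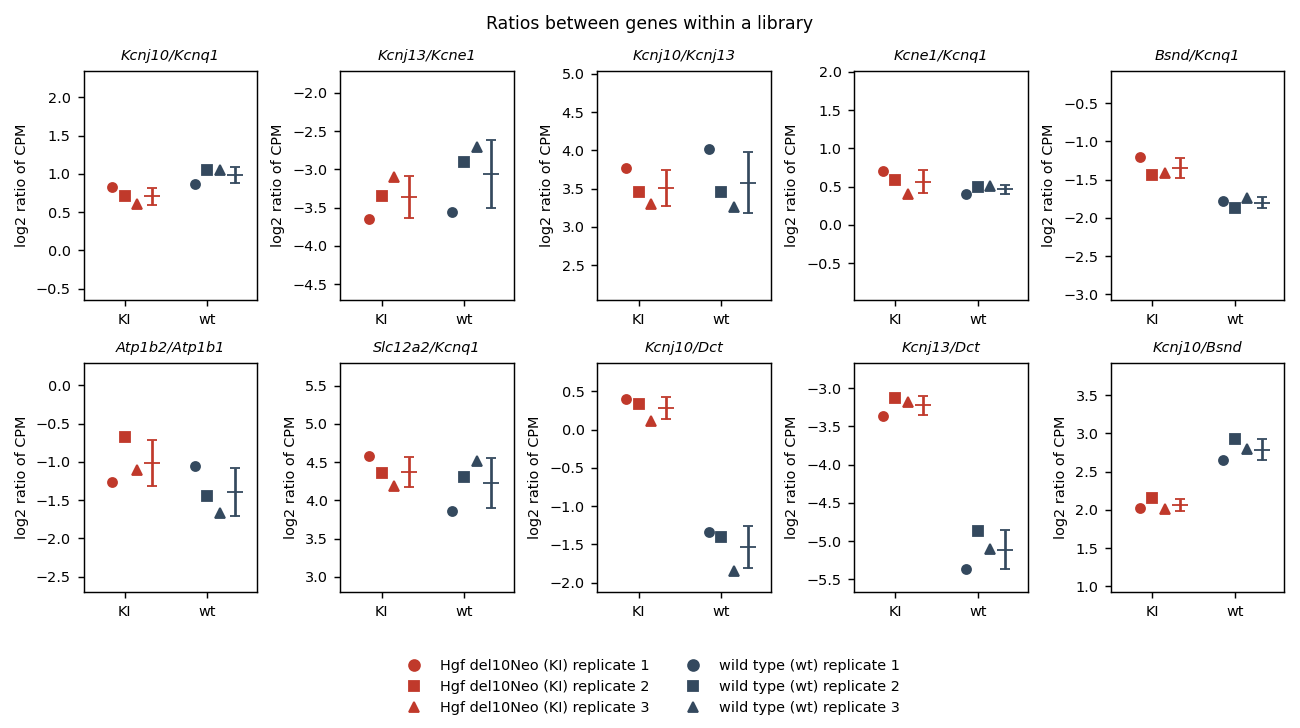
Log2 ratio of CPM between 2 genes in each library, KI left and wt right, with mean and SD; each panel spans 3 log2 units. The groups stand apart for Kcnj10/Kcnq1, Bsnd/Kcnq1, Kcnj10/Dct, Kcnj13/Dct and Kcnj10/Bsnd, and overlap in the other 5 panels.

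The ratio of the intermediate cell channel gene Kcnj10 to the marginal cell channel gene Kcnq1, in CPM, was 1.77, 1.63 and 1.52 in KI and 1.82, 2.07 and 2.07 in wt libraries. The groups did not overlap, by a small margin, and the mean log2 ratio differed by -0.28 (exact permutation p = 0.1, the smallest possible). The ratio of Kcnj10 to Bsnd, one of those added later, was 4.07, 4.44 and 4.02 in KI and 6.27, 7.61 and 6.93 in wt libraries, a difference of -0.73 in mean log2 ratio. Since Kcnj10 and Bsnd each stood apart, in opposite directions, this ratio had to stand apart as well. Bsnd to Kcnq1 was 0.434, 0.367 and 0.377 in KI and 0.291, 0.272 and 0.299 in wt libraries, a difference of 0.45 (exact permutation p = 0.1). Both marginal cell genes enter that ratio, and their groups stood apart although Kcnq1 alone overlapped.

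The 2 subunits of the secretory potassium channel kept a ratio that overlapped between genotypes. Kcne1 to Kcnq1 was 1.63, 1.5 and 1.32 in KI and 1.32, 1.41 and 1.42 in wt libraries (exact permutation p = 0.4). The 2 inward rectifier genes did so as well, with Kcnj10 to Kcnj13 at 13.6, 11 and 9.81 in KI and 16.3, 11 and 9.56 in wt libraries (exact permutation p = 0.9). The ratios Kcnj13 to Kcne1, Slc12a2 to Kcnq1 and Atp1b2 to Atp1b1 also overlapped, with differences in mean log2 ratio of -0.31, 0.15 and 0.37 (exact permutation p = 0.4, 0.6 and 0.3).

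Dct, a melanin pathway gene of intermediate cells, fell in KI. It was at 19.3, 24.4 and 23.6 CPM in KI and 98.6, 105 and 116 CPM in wt libraries, a log2 fold change of -2.25 (SE 0.121, edgeR adjusted p = 0.000179). Without KI replicate 3 it was -2.29 (edgeR adjusted p = 0.00123). Beside it, the log2 fold changes of Kcnj10 and Kcnj13 were -0.43 and -0.38, and neither passed the adjusted threshold. Kcnj10 CPM was 1.32, 1.26 and 1.09 times that of Dct in KI and 0.395, 0.376 and 0.279 times in wt libraries, a ratio 3.52-fold higher in KI. For Kcnj13 over Dct the ratio was 3.7-fold higher in KI. Both were chosen with the values in view, and the size of the Dct difference sets them apart.

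Markers of the cells that can carry these genes were read in the same libraries, by their summed CPM. The intermediate and pigment cell list summed to between 501 and 549 CPM in KI and between 696 and 711 CPM in wt libraries. All 13 of its genes were tested and all were negative; their median log2 fold change was -0.45 beside 0.00082 over all genes tested, 8 of 13 had every KI library below every wt library (4.01% of all tested genes did), and 4 fell in edgeR's test (Dct, Tyr, Slc45a2 and Mlana; 0.0241% of all tested genes were called lower). This list, like the others, was chosen with earlier results of these data known, so these counts describe it and do not test it. Without KI replicate 3, Dct and Slc45a2 still passed, while Tyr and Mlana had edgeR adjusted p = 0.079 each, with log2 fold changes of -2.22 and -1.97. Its abundant adhesion and receptor genes Cd44 and Nrp2 were at -0.12 (SE 0.108) and -0.11 (SE 0.128). The marginal cell list summed to between 728 and 843 CPM in KI and between 642 and 723 CPM in wt libraries, with 5 of 7 genes positive, none called and a median of 0.16. Lrp2, Esrrb and Wnk2 of this list also stand in the lists of related genes below. Its most abundant gene, Lrp2, which encodes the endocytic receptor megalin, had every KI library above every wt library (509 to 605 CPM in KI, 450 to 497 CPM in wt; log2 fold change 0.19, and 0.23 without KI replicate 3). Without Lrp2, the other 6 genes summed to 229, 238 and 220 CPM in KI and 220, 226 and 192 CPM in wt libraries, which overlap. The intermediate cell sum stood apart in the direction of Kcnj10. The marginal cell sum stood apart with Lrp2 included and overlapped without it; among the marginal cell genes of the 7, Bsnd was at 0.29, Kcnq1 at -0.16 and Kcne1 at -0.05. Their part in the result was not tested.

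**Figure D3:**
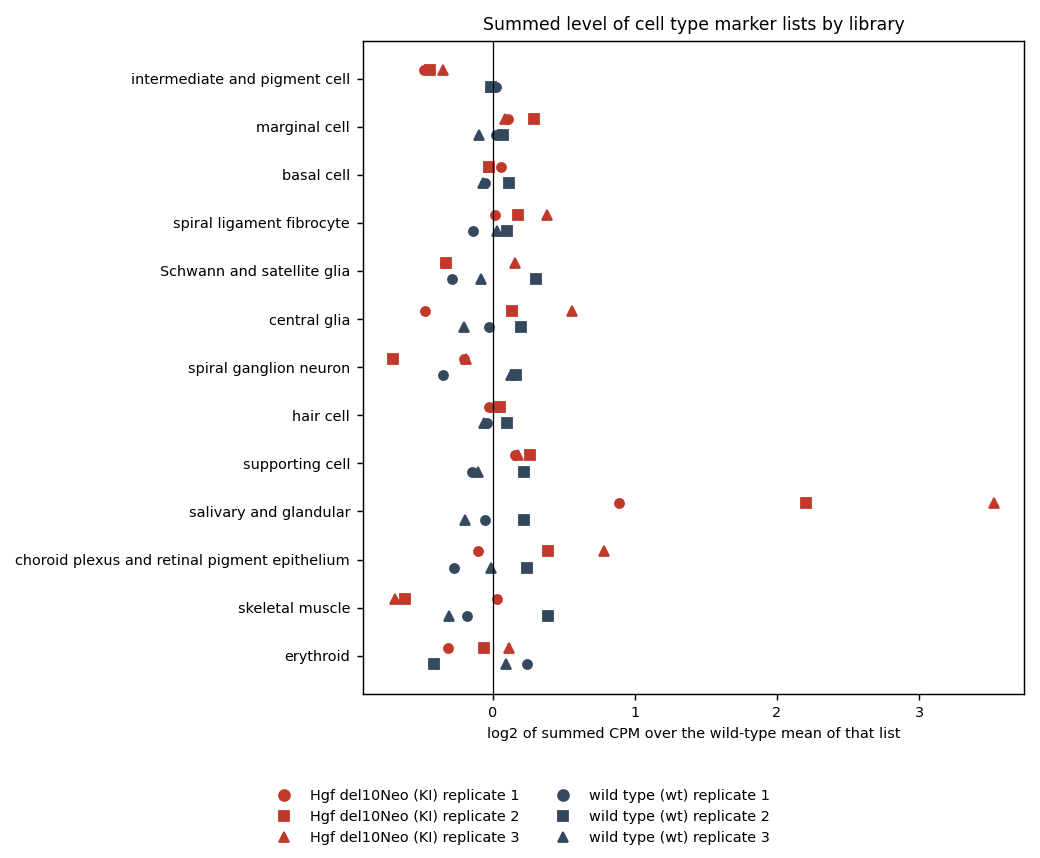
Log2 of the summed CPM of each cell type marker list over the wt mean of that list, 1 point per library, KI above wt in each row. KI points lie left of wt points for intermediate and pigment cells and right of them for marginal cells and salivary genes; the other 10 rows overlap.

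Of the other cells that express Kcnj10 or Atp1b2, the Schwann and satellite glia list summed to between 559 and 785 CPM in KI and between 579 and 873 CPM in wt libraries, with 6 of 7 genes negative and a median of -0.33. The central glia list summed to between 113 and 232 CPM in KI and between 137 and 181 CPM in wt libraries (median 0.19 over 6 tested genes), the neuron list to between 352 and 504 CPM in KI and between 450 and 643 CPM in wt libraries (median -0.34 over 6), and the supporting cell list to between 145 and 156 CPM in KI and between 117 and 151 CPM in wt libraries (median 0.03 over 6). None of these lists had a called gene, and all 4 sums overlapped. The salivary and glandular list was higher in every KI library, at 34.9, 86.8 and 218 CPM in KI against 18.1, 22 and 16.5 CPM in wt libraries, with Car6 called, also without KI replicate 3 (edgeR adjusted p = 0.004). KI replicate 3 had the most of it and the least Slc12a2 of the 6 libraries, 309 CPM, with 311 CPM in wt replicate 1. KI replicate 2, with the next highest sum of this list, had the most Slc12a2, 385 CPM. Basal cell, fibrocyte, hair cell, choroid plexus and retinal pigment epithelium, skeletal muscle and erythroid lists had medians between -0.3 and 0.16, no called gene and overlapping sums. No marker in any list was at 0 in all libraries, and the part of these cells in the results was not tested.

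The rest of the transport machinery was read from 6 lists of related genes. Of their 64 tested genes none passed the adjusted threshold in edgeR, and 4 had an unadjusted p under 0.05, where the shares over all genes were the 0.0338% and 4.5% given above. The groups did not overlap for 4 of the 64, Kcnj2, Wnk4, Lrp2 and Otos, which is 6.25% beside 8.72% of all tested genes. Without KI replicate 3 their log2 fold changes were -0.26, 0.50, 0.23 and -0.44, and all 4 had edgeR adjusted p = 0.999.

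**Figure D4:**
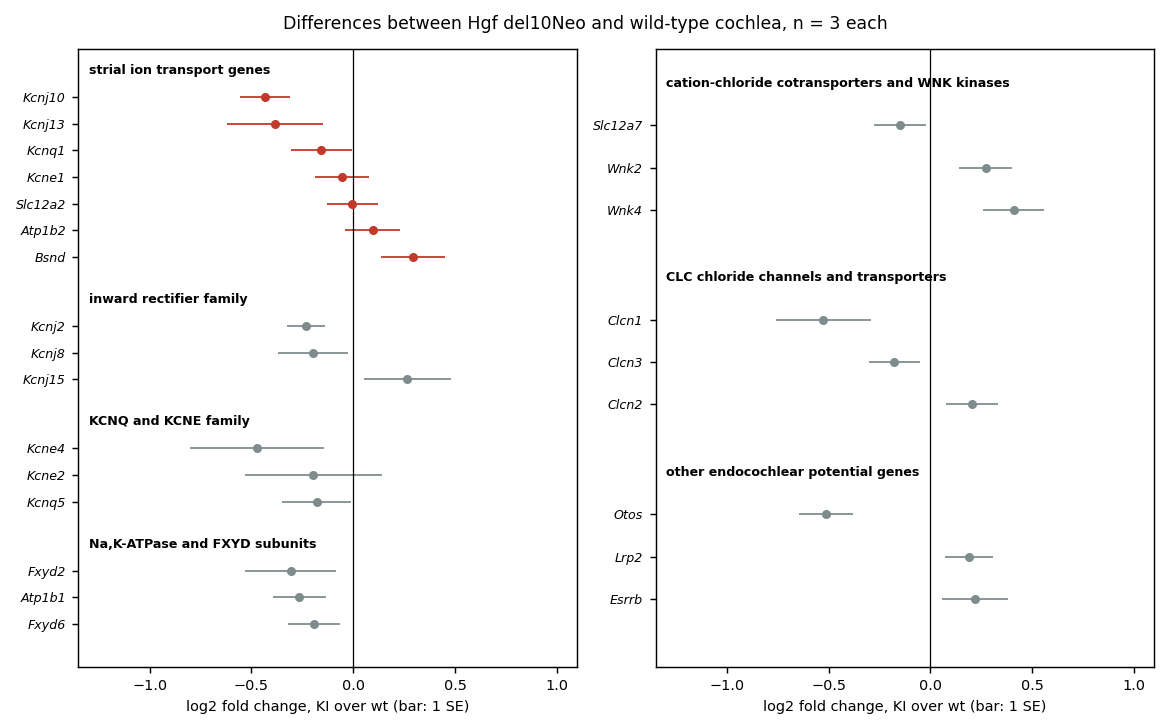
Log2 fold change of KI over wt with 1 SE for the 7 transport genes (red) and for the 3 genes of smallest p in each of 6 lists of related genes (grey), n = 3 libraries per genotype. Kcnj10 at -0.43 and Bsnd at 0.29 lie at the ends of the 7, and the grey genes run from -0.53 (Clcn1) to 0.41 (Wnk4).

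Among inward rectifier genes, 6 of 12 tested were negative and the median was -0.02. Kcnj2, a rectifier gene of many excitable and vascular cells, was at 39.9, 41.5 and 43.1 CPM in KI and 45.1, 49.7 and 51.4 CPM in wt libraries, without overlap (log2 fold change -0.23, SE 0.0954, edgeR adjusted p = 0.966). Kcnj15 was at 0.27 (SE 0.215) and Kcnj8, a subunit of ATP-sensitive channels, at -0.2 (SE 0.17). Kcnj16, whose product joins that of Kcnj10 in mixed channels, was picked with its values in view and was at 45.2, 52.2 and 46.3 CPM in KI and 43.4, 48 and 48.5 CPM in wt libraries, with overlap.

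Of the KCNQ and KCNE genes, 6 of 7 tested were negative, with a median of -0.13, and 1 of the 8 listed symbols was not matched. Kcne4 was at 6.79, 7.64 and 12.9 CPM in KI and 19.5, 9.96 and 8.41 CPM in wt libraries, where wt replicate 1 alone stood high. Kcnq5 and Kcne2 had log2 fold changes of -0.18 (SE 0.17) and -0.2 (SE 0.335).

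Of the sodium pump and FXYD genes, 9 of 13 tested were negative, with a median of -0.08. Atp1b1, the other main beta subunit gene, was at 156, 115 and 122 CPM in KI and 145, 166 and 163 CPM in wt libraries, a log2 fold change of -0.26 (SE 0.129) with overlap at KI replicate 1. Fxyd6 and Fxyd2, pump regulators, were at -0.19 (SE 0.127) and -0.31 (SE 0.224).

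Of the cotransporter and WNK kinase genes, 8 of 15 tested were positive, with a median of 0.01. Wnk4, a kinase gene that acts upstream of cation-chloride cotransporters, was at 10.1, 11.2 and 8.63 CPM in KI and 7.72, 8.34 and 6.62 CPM in wt libraries, without overlap (log2 fold change 0.41, SE 0.15, edgeR adjusted p = 0.966). Wnk2 was at 45.1, 44.8 and 37.5 CPM in KI and 37.2, 38.8 and 29.8 CPM in wt libraries, with overlap at KI replicate 3 alone (log2 fold change 0.27, SE 0.128). Slc12a7, a potassium-chloride cotransporter gene, was at -0.15 (SE 0.127).

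Of the CLC genes, 5 of 9 tested were positive, with a median of 0.01. Clcn1, the chloride channel gene of skeletal muscle, had the most negative value, -0.53 (SE 0.234), and muscle markers summed to between 1898 and 3117 CPM in KI and between 2471 and 3998 CPM in wt libraries. Clcn2 was at 0.2 (SE 0.128) and Clcn3 at -0.18 (SE 0.127).

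Of 8 further genes needed for the endocochlear potential, 6 were positive, with a median of 0.05. Otos, a secreted protein gene of spiral ligament fibrocytes, was at 110, 113 and 94.7 CPM in KI and 140, 180 and 134 CPM in wt libraries, without overlap (log2 fold change -0.51, SE 0.133, edgeR adjusted p = 0.966). Esrrb, a nuclear receptor gene of marginal cells, was at 0.22 (SE 0.163) and Lrp2 at 0.19 (SE 0.117).

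The genes whose log2 CPM across the 6 libraries was most like that of each transport gene were sought among 14667 named genes with at least 1 CPM in both groups. For Kcnj10 they were Abhd2 (Pearson r = 0.989) and Gem (0.979), for Kcnj13 Eps8l1 (0.977) and Tmem167b (0.970), for Kcnq1 Col27a1 (0.989) and Sdc1 (0.973), and for Kcne1 Ephb3 (0.998) and Ppp1r12c (0.976). For Slc12a2 they were Ift57 (0.985) and Zfp473 (0.971), for Atp1b2 Ulk4 (0.981), and for Bsnd Atp13a1 (0.992) and Armc3 (0.985). None of the genes named here was another of the 7 or passed the adjusted threshold. With 6 libraries and this many genes, such values describe the libraries only.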

How the data were processed

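Cochlear total RNA was depleted of ribosomal RNA, reverse transcribed with random primers and sequenced in paired reads of 93 bases, per the labels' protocols. Reads were mapped to GRCm38 with STAR 2.5.2, per the submitters' processing notes. Not given in the sources used here is how reads were assigned to genes, and whether by strand. The authors deposited raw read counts per gene. They also deposited a DESeq2 table with mean signal, log2 fold changes, a test score and p-values per gene, of which only the values named as theirs were used. Deposited regularized log values were not used.

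From the counts, genes were filtered with filterByExpr, scaled by TMM and tested with edgeR 4.0.16 (quasi-likelihood F test, default options, R 4.3.3), two-sided, with genotype as the only term and Benjamini-Hochberg adjustment over 20733 genes. The SE was taken as log2 fold change over root F. The table had 48733 rows; 24 spike-in and transgene rows (at most 0.0045% of a library) were left out. Symbols, coordinates and merged exon lengths came from GENCODE M21 on the same build, with 48349 identifiers matched. Gene counts were 24005234 to 42312291 per library. All 15 pairs of libraries differed beyond counting noise (chi-square per degree of freedom from 21.1 to 49.3, for genes averaging at least 10 counts). The test was checked on simulated data with changes larger than any of the transport genes showed, so its power for changes of their size was not checked. Log2 CPM for ratios used a prior count of 2, and permutation tests scipy 1.17.1.

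The genes and lists were chosen with earlier results of these data known. Named by rule were the 7 genes, 3 genes of smallest p per related list, the 2 most abundant genes per marker list, called genes, and the 2 genes of most similar pattern; a marker gene so named is printed only where a result turns on it, and some genes are not reported here. Alternatives were RLE and upper-quartile scaling, no filter, a filter of 1 CPM in 3 libraries, limma-voom (limma 3.58.1), DESeq2 1.42.0, bias-adjusted quasi-likelihood, Xist as a covariate for sex, and leaving out each library. Replicate numbers follow accession order and pair no samples.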

Additional observations from a re-analysis of the deposited data

How the results depend on the processing

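None of the 7 genes passed the adjusted threshold under any of the 14 other settings tried for each, with adjusted p between 0.303 and 1 for Kcnj10 (lowest with no filter on low counts). Kcnj10, Kcnj13, Kcnq1 and Bsnd kept their sign in all 14; Kcnj10 ranged from -0.53 to -0.38 and Bsnd from 0.2 to 0.41. Signs near 0 turned: Slc12a2 was at 0.0059 with upper-quartile scaling and from -0.090 to 0.067 with single libraries left out, Kcne1 from -0.16 to 0.015 and Atp1b2 from -0.016 to 0.21. With single libraries left out, the difference of the Kcnj10/Kcnj13 ratio ran from -0.23 to 0.15 and that of Slc12a2/Kcnq1 from -0.034 to 0.29; the other 8 ratios kept their sign. The count of genes called over all genes, 7 in the main setting, was 76 with no filter, 25 with DESeq2 and 11 with the Xist covariate, and from 3 to 21 with single libraries left out (21 without KI replicate 1, 4 without wt replicate 1, 3 without wt replicate 2 or KI replicate 3). The cause was not tested. No paired analysis was possible because the labels give no replicate numbers shared between the genotypes. Depth limits Kcnj13 and Bsnd most.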
